A study of Mus musculus with 55 samples.

Results

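Lipogenesis and triglyceride assembly were followed through 35 genes, taken by symbol from the 24475 rows of a table of liver read counts. They cover 3 genes that supply carbon and NADPH, 3 of fatty acid synthesis, 4 of chain elongation, 4 of desaturation, 3 regulators, 3 of acyl-CoA activation, 9 of glycerolipid assembly, 4 of lipid droplets and lipases and 2 of lipoprotein secretion. All 35 were rows of the table, and 34 had enough reads to be tested. The exception was Cidea. The genes were chosen by name and function, with earlier results of these data known, and no measured value served as a threshold.

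The liver makes fatty acids in its cytosol when carbohydrate or amino acids exceed what it burns. Citrate leaves the mitochondria and is split into acetyl-CoA, which acetyl-CoA carboxylase and fatty acid synthase turn into palmitate, and elongases and desaturases then lengthen and desaturate the chain. The sterol-regulated factor SREBP and the carbohydrate-responsive factor ChREBP drive this programme. Activated fatty acids are joined to glycerol phosphate, trimmed to diacylglycerol by lipins and completed to triglyceride by DGAT enzymes. The product is stored in droplets or loaded onto apolipoprotein B for export as very low density lipoprotein.

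The livers came from 55 male mice in 6 groups. WT mice were the hybrid B6EiC3SnF1/J. OTC mice were B6EiC3Sn a/A-Otcspf-ash/J, which carry a variant of Otc, the X-linked urea cycle gene for ornithine transcarbamylase. The strains therefore differ in background as well as in Otc, and the 2 cannot be told apart. Every mouse received an adeno-associated virus by vein at 4 months of age, carrying a scrambled hairpin (control) or a short hairpin RNA against Gls2 (liver glutaminase) or Glud1 (glutamate dehydrogenase). Which promoter the vector used, and which cells it reached, is not given in the sources used here. From week 2 the feed of every mouse held 40% protein, and the liver was removed in week 5, at 5 months of age. WT mice gave 10 control, 10 sh-Gls2 and 9 sh-Glud1 libraries, and OTC mice gave 8, 10 and 8, each library from 1 mouse. For 1 OTC control library the mouse number in the table differed from that in the titles, so this one goes by the name of unnumbered OTC control.

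Total counts lay between 14489866 and 22781052 per library. The targeted genes were low where the labels say so: Otc was at 522 ± 38.5 CPM in WT control (SD, n = 10) against 61.2 ± 11.7 CPM in OTC control (SD, n = 8), and each hairpin lowered its target in both strains. CPM are read counts scaled to the total of each library over the tested genes, times the TMM normalization factor of that library. All 8 hepatocyte markers were detected, with group medians of their summed level from 93345 to 113171 CPM. Some libraries stood apart in the lipid genes. WT sh-Gls2 mouse 45 was the highest of its group for 24 of the 35 genes, WT sh-Glud1 mouse 56 for 21 and WT control mouse 13 for 20, and 14 genes peaked in all 3 of these mice. WT control mouse 7 was the lowest of its group for 17 genes and the highest for 3, and OTC control mouse 3 the lowest for 14 and the highest for 3. Results that rest on such a library are given with and without it.

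Promoters are shown for 5 of the genes whose transcripts differed between strains or vectors in more than 1 comparison below. The windows shown are the 200 bases before a transcription start in the RefSeq table of GRCm38.p6, written 5′ to 3′ on the strand of the gene, with the matches to searched motifs in capitals. They are examples and no representative sample. Apob, Mogat1 and Agpat3 also differed in more than 1 comparison, and their windows held no match. The first start of Acsl1, not shown, had GC boxes and no sterol regulatory element core. The Lpin1 window lies at chr12:16610967-16611166 (minus strand), Lpin2 at chr17:71183332-71183531, Elovl5 at chr9:77917165-77917364, the second start of Acsl1 at chr8:46490766-46490965 and Elovl1 at chr4:118427893-118428092 (all plus strand). The windows of Lpin2 and Acsl1 fall inside the annotated span of the gene, and the others end at its start.
Lpin1: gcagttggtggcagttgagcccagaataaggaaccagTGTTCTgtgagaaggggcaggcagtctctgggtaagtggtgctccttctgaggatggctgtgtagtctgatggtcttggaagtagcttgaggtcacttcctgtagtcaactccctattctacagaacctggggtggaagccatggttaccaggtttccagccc
Lpin2: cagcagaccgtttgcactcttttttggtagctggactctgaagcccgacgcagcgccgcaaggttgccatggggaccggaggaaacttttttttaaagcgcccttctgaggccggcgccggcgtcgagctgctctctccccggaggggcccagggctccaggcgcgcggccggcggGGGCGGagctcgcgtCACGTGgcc
Elovl5: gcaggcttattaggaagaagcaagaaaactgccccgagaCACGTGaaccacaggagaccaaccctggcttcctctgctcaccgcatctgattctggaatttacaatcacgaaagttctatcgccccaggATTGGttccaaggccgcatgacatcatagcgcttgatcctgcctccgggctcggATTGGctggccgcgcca
Acsl1: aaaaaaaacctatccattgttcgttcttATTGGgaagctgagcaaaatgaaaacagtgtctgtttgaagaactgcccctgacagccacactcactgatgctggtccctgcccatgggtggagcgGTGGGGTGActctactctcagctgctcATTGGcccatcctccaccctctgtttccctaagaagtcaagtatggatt
Elovl1: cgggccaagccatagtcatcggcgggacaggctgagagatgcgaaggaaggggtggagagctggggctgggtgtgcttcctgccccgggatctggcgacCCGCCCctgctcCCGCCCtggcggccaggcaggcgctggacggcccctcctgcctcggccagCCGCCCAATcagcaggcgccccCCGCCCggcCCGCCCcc
The capitals in Lpin1 are TGTTCT, the opposite strand of the hexamer AGAACA that glucocorticoid receptors recognise. Those in Lpin2 are the GC box GGGCGG and the E-box CACGTG, and those in Elovl5 are an E-box and a pair of ATTGG matches, the opposite strand of a CCAAT box. In Acsl1 they are GTGGGGTGA, the opposite strand of the sterol regulatory element core TCACCCCAC, and a pair of ATTGG matches. In Elovl1 they are CCAAT and CCGCCC, the opposite strand of the GC box, with 1 GC box overlapping the CCAAT box.

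These motifs were counted on both strands of 250 bases before each start, in the 41 windows of the 29 genes that matched the table by symbol. The sterol element core was in 1 of the 41 windows, that of Acsl1, against 0.496% of all 32851 windows. The E-box was in 3 windows (Elovl5, Lpin2 and Mlxipl), against 6.02% of all windows. The CCAAT box was in 16 and the GC box in 19, against 33.8% and 32.7%, and AGAACA in 7, against 16.1%. Nuclear receptor elements with 2 copies of AGGTCA in the same direction, 1 or 4 bases apart, were in none of the 41, and in 0.0335% and 0.0152% of all windows. A match describes the letters of a window and is no evidence of binding.

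Transcript levels per length, in TPM (transcript abundance scaled by length and library total), spanned a wide range in WT control livers. Scd1, the main hepatic stearoyl-CoA desaturase, led with a median level of 3611 TPM, followed by Apob at 964.6 TPM, the acyl-CoA synthetase Acsl1 at 497 TPM, the elongase Elovl5 at 453 TPM and the desaturase Fads2 at 408 TPM. Fasn, fatty acid synthase, was at 125 TPM. At the low end were Pnpla3 at 0.715 TPM, Mogat1 at 0.51 TPM, Cidec at 0.505 TPM and Cidea at 0.035 TPM. The ranges of Elovl5 (247 to 870 TPM) and Acsl1 (323 to 522 TPM) overlap, as do those of Elovl5 and Fads2 (206 to 545 TPM), so these neighbours in the order do not differ beyond their spread. Summed in CPM, the 35 genes came to 2.02% to 4.37% of the scaled total in WT control libraries (median 2.81%). In OTC control they came to 1.23% to 3.3% (median 2.16%).

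The spread between mice differed from gene to gene, also among genes of a shared role. In WT control the coefficient of variation of the CPM was 6.07% for Agpat3, 7.16% for Mttp and 8.04% for Apob. Among the other genes of glycerolipid assembly it was 24.2% for Agpat2, 38.7% for Gpam, 39% for Lpin1 and 148% for Mogat1. Among the lipogenic genes it was 13.3% for Acaca, acetyl-CoA carboxylase, against 50.5% for Scd1, 52.7% for Fasn and 69.7% for Thrsp, a nuclear protein that responds to thyroid hormone and carbohydrate.

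In livers with the control vector, 13 of the 34 genes differed between OTC and WT, a share near that of all genes. The lipins Lpin1 and Lpin2, the triglyceride lipase Pnpla2, Dgat1 and Scd2 were higher in OTC. Apob, Acsl1, Acsl5, Elovl5, Elovl1, Fads2, Agpat2 and Mogat1 were lower. Of the 34 tested genes 5 were higher, 8 lower and 21 not called by edgeR at an adjusted p below 0.05. That is 38.2% of them, against 36.3% of all 13311 genes tested, of which 19.9% were higher and 16.4% lower, and the median log2 fold change was −0.20 against 0.02 over all genes. In TPM the median of all genes moved from 0.02 to 0.10 with a pseudocount of 1 and to 0.12 with 0.1, so TPM values of the strain comparison are shifted upwards by that much.

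**Figure D1:**
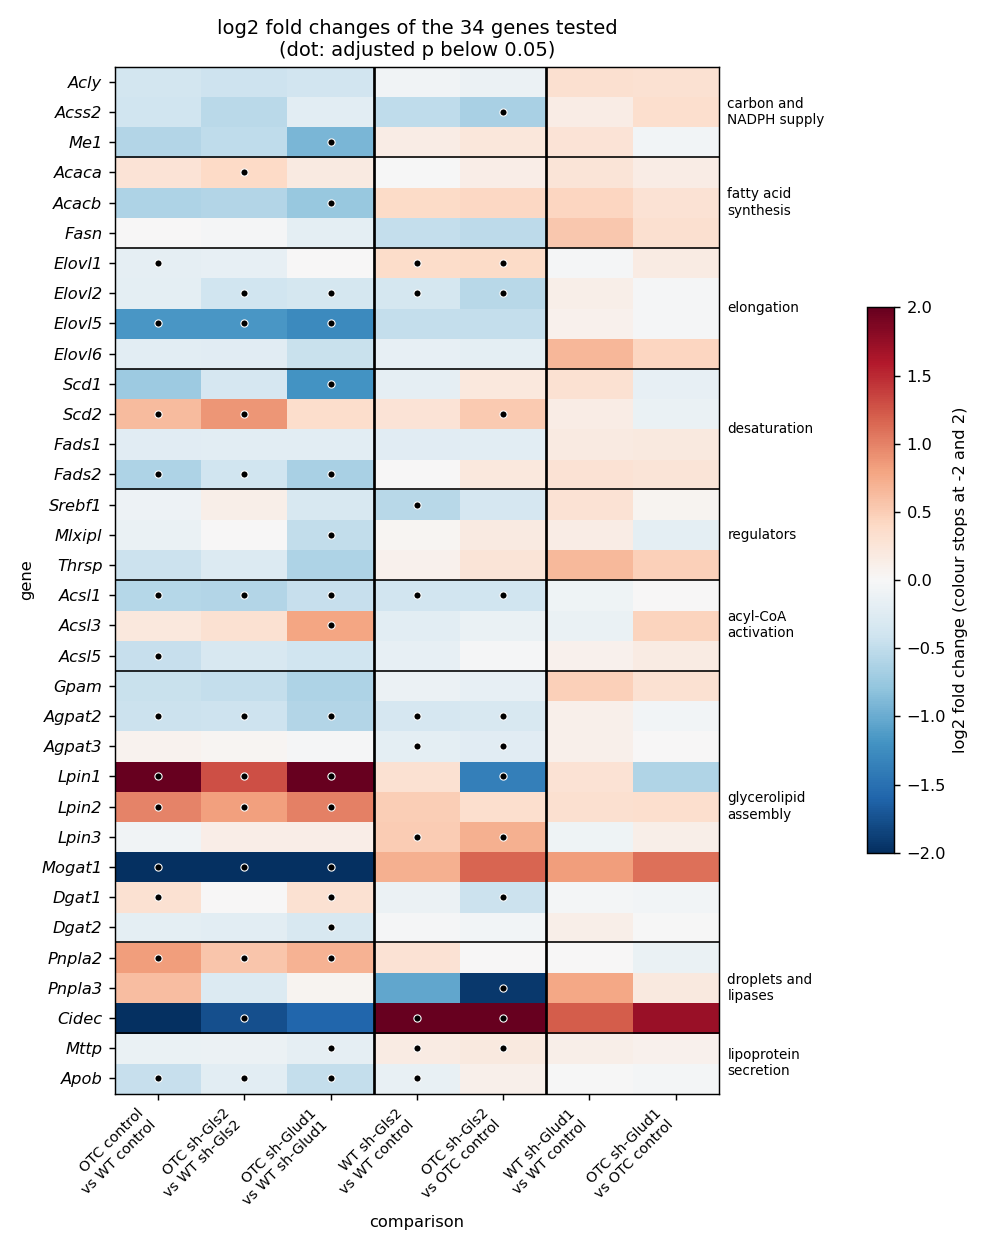
Heat map of the log2 fold changes of the 34 tested genes (rows, ordered by role) in 7 comparisons (columns: OTC against WT under each of the 3 vectors, sh-Gls2 against control in each strain, sh-Glud1 against control in each strain). Colour runs from blue (lower) to red (higher) and is clipped at 2 in either direction, and dots mark adjusted p below 0.05 by edgeR. The columns of the strain comparisons carry 13, 13 and 18 dots, those of sh-Gls2 10 and 13, and those of sh-Glud1 none.

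Apob, the structural protein of very low density lipoprotein, separated the strains fully. It ran from 6872 to 9356 CPM in WT control (median 8467) and from 5711 to 6747 CPM in OTC control (median 6060), so that every OTC control library was below every WT control library. The difference on the log2 scale was −0.46 ± 0.06 (SE; edgeR adjusted p = 5.04e-08). Among all genes tested, 1.91% lay fully below in this comparison, and 1.5% fully above, where none of the 34 did. Apob was lower in OTC under sh-Glud1 as well (5128 to 6582 against 7731 to 9775 CPM; −0.48 ± 0.06, edgeR adjusted p = 4.3e-08) and again without overlap. Under sh-Gls2 the difference was −0.21 (edgeR adjusted p = 0.00404; −0.07 in TPM, limma adjusted p = 0.293) and the ranges overlapped, at 6740 to 8458 CPM in WT and 5956 to 8031 CPM in OTC. Mttp, which loads lipid onto Apob, was at 334 ± 23.9 CPM in WT control (SD, n = 10) against 304 ± 26.1 CPM in OTC control (SD, n = 8) and was not called (log2 fold change −0.14, edgeR adjusted p = 0.0617).

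Lpin1 showed the largest positive log2 fold change of the 34 genes. Lpin1, whose product is a phosphatidate phosphatase and a nuclear coregulator, ran from 28.8 to 103 CPM in WT control (median 57.2) and from 82.9 to 1896 CPM in OTC control (median 122). The ranges overlap, and 2 OTC libraries lie far above the rest, mouse 3 at 1896 and mouse 67 at 1053 CPM, with the other 6 between 82.9 and 192 CPM. The log2 fold change was 2.97 ± 0.45 (SE; edgeR adjusted p = 1.18e-06), 2.09 without mouse 3 and 0.995 (adjusted p = 0.0129) without both mice. Fkbp5, a gene induced by glucocorticoids that was picked after its values were seen, was at 435 CPM in mouse 3 and 222 CPM in mouse 67, against 14.2 to 78.4 CPM in the other 6 and 7.45 to 18.9 CPM in WT control. Whether it has a part in the level of Lpin1 was not tested. Under sh-Glud1 every OTC library was above every WT library for Lpin1 (102 to 641 against 44.3 to 92.7 CPM; 2.08 ± 0.46, edgeR adjusted p = 0.000362), where 2.01% of all genes lay fully above. Under sh-Gls2 the ranges overlapped, at 64.9 to 261 and 44.6 to 162 CPM (1.30 ± 0.42, edgeR adjusted p = 0.0148).

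The second lipin was steadier between mice. Lpin2, a phosphatidate phosphatase of liver, ran from 80.7 to 223 CPM in WT control (median 145) and from 182 to 382 CPM in OTC control (median 310). Most OTC libraries lay above the WT range, with some overlap at its upper end. The log2 fold change was 0.99 ± 0.23 (SE; edgeR adjusted p = 0.000583), and mice 3 and 67 aside it was 0.88. It was 0.82 under sh-Gls2 (adjusted p = 0.00322) and 1.003 ± 0.24 under sh-Glud1 (adjusted p = 0.000763). Lpin3, at 5.86 ± 1.19 CPM in WT control (SD, n = 10) against 5.58 ± 1.02 CPM in OTC control (SD, n = 8), was not called between strains.

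The remaining assembly genes moved in both directions. Mogat1, a monoacylglycerol acyltransferase of low abundance, ran from 0.105 to 5.21 CPM in WT control (2 to 93 reads, median 0.415 CPM) and from 0 to 0.251 CPM in OTC control (0 to 4 reads, median 0). The upper OTC library overlaps the lower WT libraries. The log2 fold change of Mogat1 was −4.56 ± 1.19 (SE; edgeR adjusted p = 0.00206), and −3.81 without WT control mouse 13. Dgat1, which adds the last acyl chain of triglyceride, was at 12.4 to 19.6 CPM in WT control (median 17.6) and 18.3 to 29.6 CPM in OTC control (median 20.5), with an overlap between 18.3 and 19.6 CPM (0.31 ± 0.08, edgeR adjusted p = 0.00228). The call of Dgat1 was lost without OTC control mice 3 and 67 (0.20, adjusted p = 0.0606). Agpat2, a lysophosphatidate acyltransferase, was at 98.7 to 211 CPM in WT control and 105 to 149 CPM in OTC control (−0.43 ± 0.12, edgeR adjusted p = 0.00554). Gpam, Agpat3 and Dgat2 were not called.

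**Figure D2:**
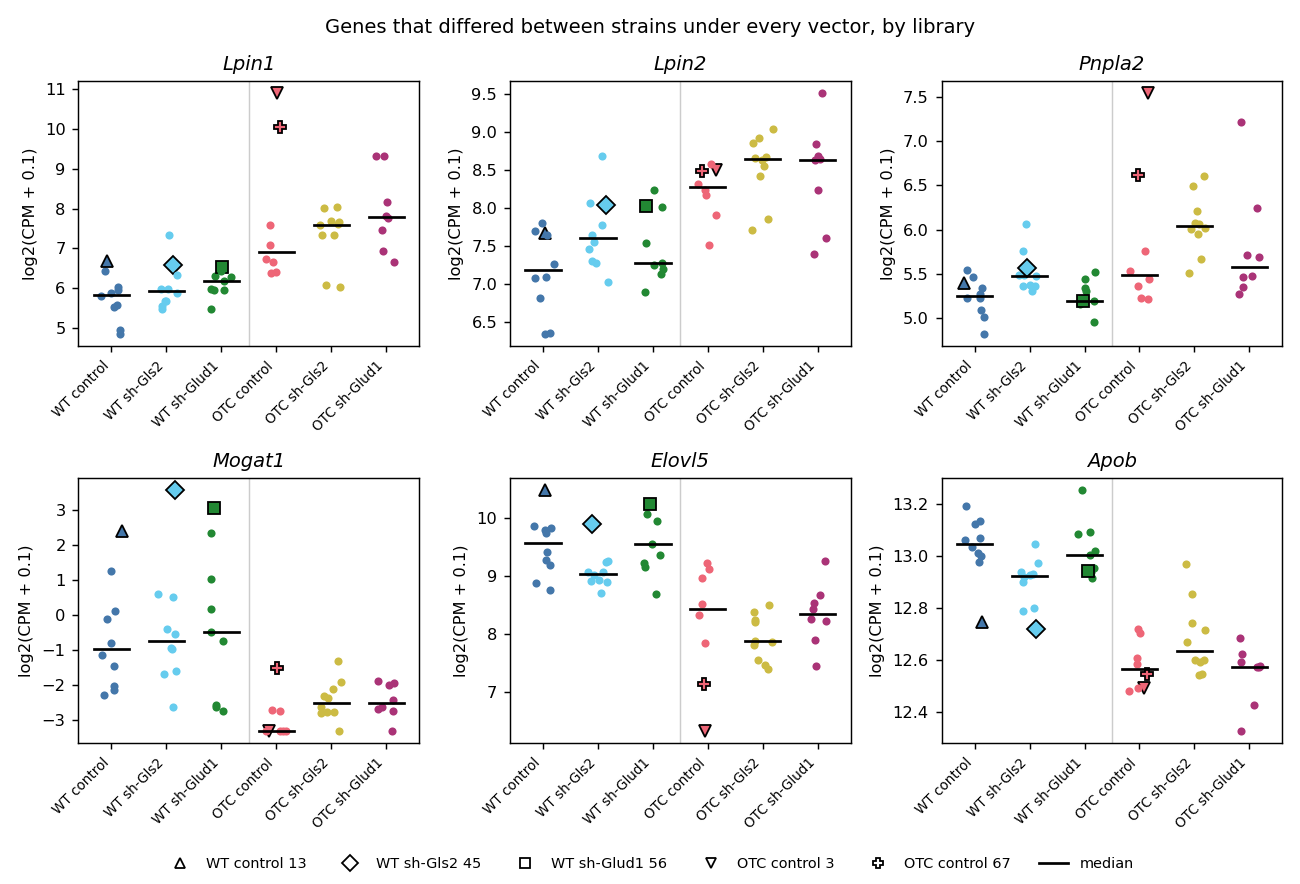
Strip plots of log2(CPM + 0.1) for Lpin1, Lpin2, Pnpla2, Mogat1, Elovl5 and Apob, with 1 point per mouse in the 6 groups (strain by vector) and a black line at each median. Marked symbols are WT control mouse 13 (triangle), WT sh-Gls2 mouse 45 (diamond), WT sh-Glud1 mouse 56 (square), and OTC control mice 3 (inverted triangle) and 67 (plus). Apob lies lower in all 3 OTC groups, and the Lpin1 panel shows OTC control mice 3 and 67 at 1896 and 1053 CPM, apart from the rest of their group.

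Pnpla2, the lipase that starts droplet lipolysis, rested on few libraries under the control vector. It ran from 28.2 to 46.5 CPM in WT control (median 38) and from 37.1 to 186 CPM in OTC control (median 44.8). The ranges overlap, and the highest OTC value belongs to mouse 3. The log2 fold change was 0.83 ± 0.22 (SE; edgeR adjusted p = 0.00255), 0.41 without mouse 3 (adjusted p = 0.0882) and 0.17 without mice 3 and 67 (adjusted p = 0.495). Pnpla2 was also called higher in OTC under sh-Gls2 (0.55, adjusted p = 0.042), a call that ended without any 1 of 13 of the 20 libraries, all but OTC sh-Gls2 mice 31, 39, 49, 73 and 74 and WT sh-Gls2 mice 78 and 79 (0.48 to 0.55, adjusted p from 0.0517 to 0.0884). Under sh-Glud1 the difference was 0.69 (adjusted p = 0.0155), which became 0.36 without OTC sh-Glud1 mouse 65 (adjusted p = 0.178). Pnpla3 and Cidec, a lipase-like protein and a droplet fusion protein, were not called under the control vector.

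Of the enzymes that act on polyunsaturated fatty acids, Elovl5 and Fads2 were called lower in OTC and Elovl2 and Fads1 were not called. Elovl5, an elongase of polyunsaturated chains, ran from 433 to 1424 CPM in WT control (median 765) and from 79.5 to 593 CPM in OTC control (median 343). The groups overlap between 433 and 593 CPM. The difference was −1.16 ± 0.26 log2 (SE; edgeR adjusted p = 0.000485), and −0.73 (adjusted p = 0.0159) when WT control mouse 13 was left out with OTC control mice 3 and 67. Under sh-Gls2 the ranges of Elovl5 did not overlap (415 to 954 in WT, 167 to 359 CPM in OTC; −1.16 ± 0.25, edgeR adjusted p = 0.000323), where 1.71% of all genes lay fully below. Under sh-Glud1 the difference was −1.27 ± 0.27 (edgeR adjusted p = 0.000236).

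Fads2, which introduces the first double bond in that pathway, was at 187 to 503 CPM in WT control (median 391) and 103 to 319 CPM in OTC control (median 280). Its log2 fold change was −0.61 ± 0.16 (SE; edgeR adjusted p = 0.00268), with overlapping ranges, and −0.36 (adjusted p = 0.0716) when WT control mouse 13 was left out with OTC control mice 3 and 67. Fads1, its neighbour on chromosome 19 and the next desaturase of the pathway, was not called (620 ± 120 CPM, SD, n = 10, in WT control). Scd2, a stearoyl-CoA desaturase that is minor in liver, was higher in OTC, with 4.25 to 9.64 CPM in WT control (median 6.50) and 6.86 to 24.7 CPM in OTC control (median 7.73). The log2 fold change of Scd2 was 0.64 ± 0.19 (SE; edgeR adjusted p = 0.00656), and 0.33 (adjusted p = 0.114) without the unnumbered OTC control. It was not called in TPM (0.41, limma adjusted p = 0.0841) or in a fit of these groups only (0.63, adjusted p = 0.0567). The TPM of Scd2 in OTC control mouse 3 was low for its CPM (2.22 TPM, 7.19 CPM), at 0.351 of the median ratio over libraries. The reason was not resolved. Under sh-Gls2 every OTC library was above every WT library for Scd2 (11.6 to 22.3 against 5.66 to 9.97 CPM; 0.89 ± 0.18, edgeR adjusted p = 0.000143), where 1.01% of all genes lay fully above.

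Of the transcripts of the 3 acyl-CoA synthetases, 2 were called lower in OTC. Acsl1 was at 756 to 1302 CPM in WT control (median 1228) and 354 to 1110 CPM in OTC control (median 818), with overlap and a log2 fold change of −0.56 ± 0.11 (SE; edgeR adjusted p = 7.51e-05). The Acsl1 ranges separated under sh-Gls2 (793 to 1032 in WT against 484 to 682 CPM in OTC; −0.59, edgeR adjusted p = 2.68e-05), where 1.71% of all genes lay fully below. Acsl5 was lower (−0.46 ± 0.16 log2, edgeR adjusted p = 0.0217), from 503 ± 98.9 CPM (SD, n = 10) to 365 ± 143 CPM (SD, n = 8). Leaving out WT control mouse 13, OTC control mouse 3 or OTC control mouse 67 ended the call of Acsl5 (−0.40 to −0.34, adjusted p from 0.0528 to 0.0626), and without mice 3 and 67 it was −0.22 (adjusted p = 0.199). Elovl1, an elongase of saturated very long chains, was at 31.5 to 41.9 CPM in WT control and 30.1 to 36.8 CPM in OTC control (−0.18 ± 0.07, edgeR adjusted p = 0.0374). Leaving out any of 7 libraries (WT control 7, 11 and 20, and OTC control 3, 35, 67 and 72) ended the call of Elovl1, with adjusted p from 0.0541 to 0.0626, as did TPM (−0.09, limma adjusted p = 0.51).

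None of the 9 genes of carbon supply, palmitate synthesis and lipogenic regulation was called between strains under the control vector. Fasn ran from 331 to 1662 CPM in WT control (median 716) and from 129 to 1832 CPM in OTC control (median 868), with a log2 fold change of 0.01 ± 0.38 (SE; edgeR adjusted p = 0.989). Scd1, of the desaturases, was not called either and ran from 5371 to 24029 CPM in WT control (median 10829) and from 944 to 15815 CPM in OTC control (median 8178; −0.73 ± 0.38, edgeR adjusted p = 0.125). Srebf1, which encodes SREBP, was at 294 ± 92.7 CPM (SD, n = 10) and 274 ± 106 CPM (SD, n = 8), with a log2 fold change of −0.10 (edgeR adjusted p = 0.728). With standard errors of 0.38 log2 for Fasn and Scd1, even the −0.73 of Scd1 was not called, so differences of that size could be missed.

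The same strain difference was measured in separate mice under the other vectors. Called higher in OTC under all 3 vectors were Lpin1, Lpin2 and Pnpla2, and called lower under all 3 were Acsl1, Agpat2, Apob, Elovl5, Fads2 and Mogat1. These 3 comparisons share no library. How many of all genes were called alike under all 3 vectors was not counted, so this repetition is not shown to be particular to the lipid genes. In TPM with a pseudocount of 1, limma lost the calls of Agpat2 under control (adjusted p = 0.0701) and sh-Gls2 (0.0944), of Mogat1 under control (0.0532) and of Apob (0.293) and Fads2 (0.228) under sh-Gls2. Under sh-Gls2, 5 genes were higher and 8 lower (29.5% of all genes were called, 14.5% higher and 14.9% lower), and limma on TPM gave 8 higher and 3 lower. The call of Fads2 (−0.40, adjusted p = 0.0412) ended without any of 12 of the 20 libraries, all but OTC sh-Gls2 mice 39, 49 and 73 and WT sh-Gls2 mice 1, 8, 34, 36 and 79 (−0.41 to −0.29, adjusted p to 0.137). That of Cidec ended without WT sh-Gls2 mouse 45 or OTC sh-Gls2 mouse 24. Cidec was lower in OTC with all libraries (−1.76 ± 0.64, edgeR adjusted p = 0.0321), and the value was −0.20 (adjusted p = 0.822) without mouse 45. Mogat1 was at −4.10 ± 0.90 (edgeR adjusted p = 0.000501) and at −2.55 without mouse 45. In TPM the calls of Cidec (−0.39, limma adjusted p = 0.393) and Elovl2 (−0.26, 0.0794) were lost. Elovl2 and Acaca were called under sh-Gls2 and not under control, at 486 to 691 against 346 to 465 CPM for Elovl2 (no overlap, as for 1.71% of all genes; −0.40 ± 0.11, adjusted p = 0.00643) and 125 ± 25.5 (SD, n = 10) against 166 ± 23.1 CPM (SD, n = 10) for Acaca (0.41 ± 0.13, edgeR adjusted p = 0.0142).

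Under sh-Glud1 the strain comparison called 18 of the 34 genes, 5 higher and 13 lower, which is 52.9% against 35% of all genes (19.9% higher, 15.1% lower). limma on TPM gave 5 higher and 8 lower with a pseudocount of 1 and 6 higher and 8 lower with 0.1. Among the 13 were lipogenic genes that were not called under the control vector. Scd1 ran from 6178 to 25043 CPM in WT (median 14378) and from 3302 to 8863 CPM in OTC (median 7586), with a log2 fold change of −1.20 ± 0.39 (SE; edgeR adjusted p = 0.0135). Me1, the malic enzyme that makes NADPH, was at 142 to 595 CPM in WT and 99.6 to 321 CPM in OTC (−0.92 ± 0.32, adjusted p = 0.0221). Mlxipl, which encodes ChREBP, was at 338 ± 41.5 (SD, n = 9) and 241 ± 58.3 CPM (SD, n = 8; −0.49 ± 0.14, edgeR adjusted p = 0.00468). Dgat2, the other enzyme of the last step of triglyceride synthesis, was lower in every OTC library (240 to 320 against 338 to 399 CPM; −0.32 ± 0.10, edgeR adjusted p = 0.00662), where 2.88% of all genes lay fully below. In TPM the ranges of Dgat2 overlapped (191 to 281 in OTC, 242 to 287 in WT) and the call was lost (−0.17, limma adjusted p = 0.117). The acyl-CoA synthetase Acsl3 was higher, at 28.5 ± 3.52 (SD, n = 9) and 49.3 ± 16.9 CPM (SD, n = 8; 0.79 ± 0.21, edgeR adjusted p = 0.00259). Calls of 4 genes ended without certain libraries: Acacb (−0.76 ± 0.28; WT sh-Glud1 17 or 56, OTC sh-Glud1 33 or 58; adjusted p to 0.0758), Me1 (WT sh-Glud1 56 or OTC sh-Glud1 58; to 0.0681) Elovl2 (OTC sh-Glud1 23 or 58; to 0.0614) and Pnpla2 (OTC sh-Glud1 65, given above). In TPM with a pseudocount of 1 the calls of Me1 (limma adjusted p = 0.0507), Acacb (0.0741), Elovl2 (0.179) and Mttp (0.948) were lost too. The difference in the strain effect between either hairpin and the control vector was not called for any of the 34 genes. The difference in it between the hairpins was not tested.

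Under sh-Gls2, 8 of the genes were called in the same direction against control in both strains. Whether these changes come from the loss of Gls2 or from other effects of the hairpin was not tested. Elovl1, Lpin3, Cidec and Mttp rose and Acsl1, Agpat2, Agpat3 and Elovl2 fell in WT and in OTC livers. In WT 4 of 34 genes rose and 6 fell, which is 29.4% against 34.8% of all genes (17.6% higher, 17.2% lower), and none had ranges without overlap, against 2.88% of all genes above and 1.88% below. In OTC 5 rose and 8 fell, which is 38.2% against 42.7% (20.2% higher, 22.6% lower), and limma on TPM gave 6 and 4. The genes called in both strains were 4 of 4 and 4 of 5 of those that rose (100% and 80%) and 4 of 6 and 4 of 8 of those that fell (66.7% and 50%), from libraries that the strains do not share. How many of all genes were called alike in both strains was not counted, so this overlap is not shown to be particular to the lipid genes. Medians were −0.10 in WT and −0.04 in OTC, against −0.01 and −0.02 over all genes.

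Markers of other cells were also read under sh-Gls2. The summed level of 10 macrophage markers ran from 116 to 193 CPM in WT control and from 165 to 263 CPM in WT sh-Gls2 (medians 141 and 231), and 8 of the 10 were called higher. In OTC it ran from 90.0 to 220 and from 184 to 325 CPM (medians 164 and 264), with 9 of 10 called higher. The medians of 9 stellate cell markers went from 254 to 368 CPM in WT and from 282 to 392 CPM in OTC. Of the 9, 3 were called in WT and 5 in OTC. The medians of 5 genes of dividing cells went from 5.15 to 17.3 and from 3.24 to 12.3 CPM, with 5 and 4 of 5 called. Over all genes tested, 34.8% were called in WT (17.6% higher) and 42.7% in OTC (20.2% higher). The 3 of 9 stellate markers in WT are near that share. Medians of 7 endothelial markers went from 194 to 220 CPM in WT and from 181 to 230 CPM in OTC. Those of 6 cholangiocyte markers went from 33.2 to 44.8 and from 29.9 to 42.5 CPM. Those of 6 erythroid markers went from 420 to 373 and from 311 to 302 CPM. In bulk RNA, a change in the number of cells of a type and a change in RNA per cell cannot be told apart. The part of these cells in the changes below was not tested.

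Elovl1 and Lpin3 rose most evenly. Elovl1 ran from 31.5 to 41.9 CPM in WT control (median 37.3) and from 40.5 to 58.4 CPM in WT sh-Gls2 (median 46.7), and in OTC from 30.1 to 36.8 CPM (median 32) to 36.7 to 47.9 CPM (median 42.4). The hairpin groups overlap their controls only at the edge in either strain. Elovl1 rose by 0.36 ± 0.07 log2 in WT livers (adjusted p = 1.9e-05) and 0.38 ± 0.07 in OTC livers (edgeR adjusted p = 1.68e-05). Lpin3, the least abundant lipin in these livers, ran from 4.79 to 9.08 CPM in WT control (median 5.62) and from 7.25 to 10.6 CPM in WT sh-Gls2 (median 7.73). In OTC it ran from 3.97 to 7.54 CPM (median 5.58) to 6.88 to 10.8 CPM (median 9.34). Lpin3 rose by 0.51 ± 0.10 log2 in WT livers (adjusted p = 9.65e-05) and 0.72 ± 0.11 in OTC livers (edgeR adjusted p = 6.14e-07).

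**Figure D3:**
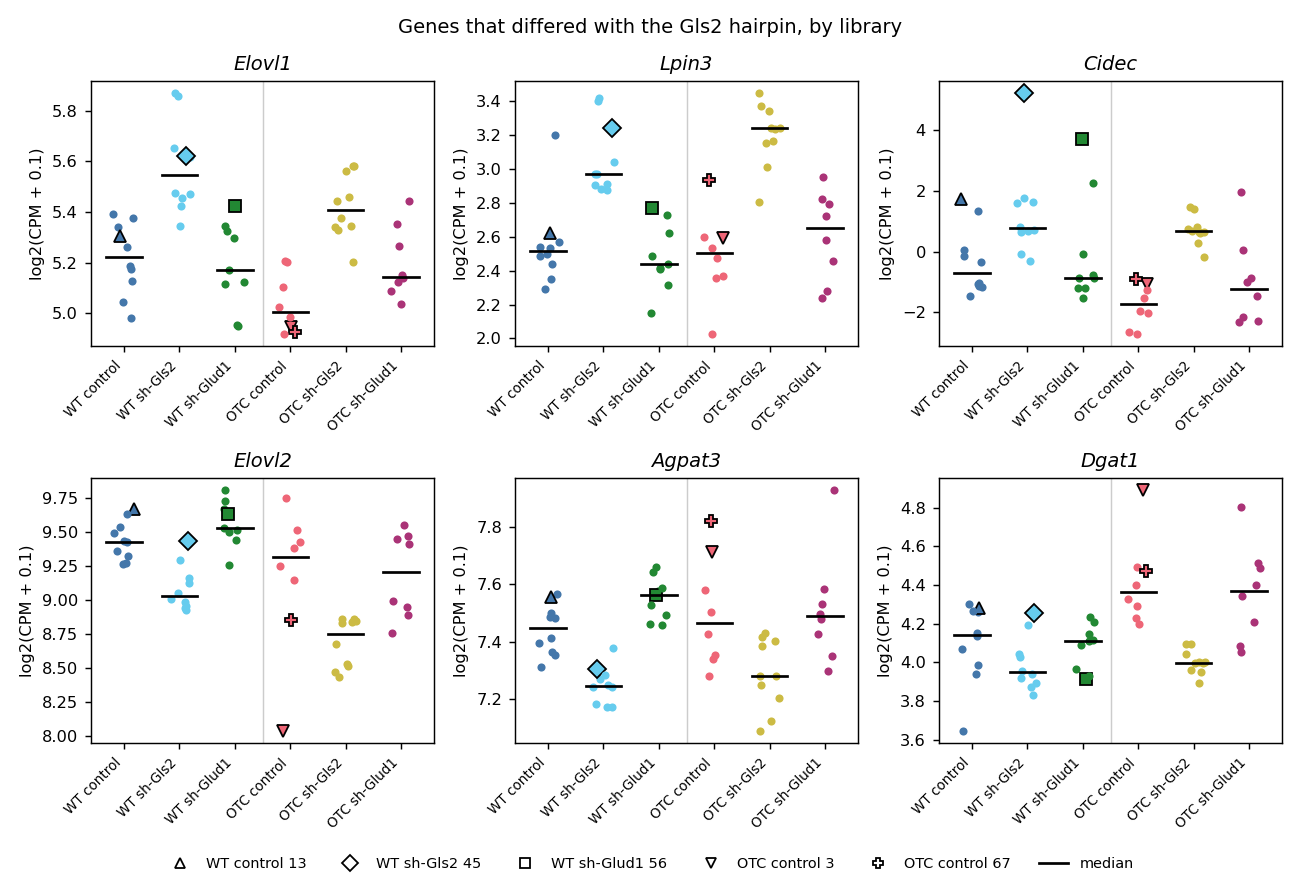
Strip plots of log2(CPM + 0.1) for Elovl1, Lpin3, Cidec, Elovl2, Agpat3 and Dgat1, with 1 point per mouse in the 6 groups, a black line at each median and the marked libraries as in the strip plots of strain differences. Elovl1, Lpin3 and Cidec lie higher and Elovl2 and Agpat3 lower in the sh-Gls2 groups of both strains, and Dgat1 is lower under sh-Gls2 in OTC, where all 10 libraries sit at or under 17 CPM.

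Cidec, which enlarges lipid droplets by fusion, was near the detection limit under control. In OTC it ran from 0.0515 to 0.44 CPM under control (1 to 7 reads, median 0.202) and from 0.783 to 2.66 CPM under sh-Gls2 (12 to 58 reads, median 1.48), with no overlap, and rose by 2.82 ± 0.92 log2 (SE; edgeR adjusted p = 0.0111). In that comparison 3.59% of all genes lay fully above. In WT, Cidec ran from 0.262 to 3.25 CPM under control (median 0.537) and from 0.704 to 37.3 CPM under sh-Gls2 (median 1.61), and rose by 2.47 ± 0.67 log2 (edgeR adjusted p = 0.0032). The WT call rested on mouse 45, the library at 37.3 CPM, without which the change was 0.92 (adjusted p = 0.228). Of 7 adipocyte markers, Lep, Plin1 and Ucp1 were at 0 in mouse 45 and Adipoq was at 0.0471 CPM. Fabp4 at 9.46 CPM (group range 6.10 to 9.46), Cfd at 0.282 CPM and Retn at 0.188 CPM were the highest of WT sh-Gls2 there, as was the summed level of all 7 at 9.98 CPM (group range 6.16 to 9.98). The part of these markers in the level of Cidec was not tested. Cidea, the related droplet protein, was above 1 CPM in only 2 libraries, WT sh-Gls2 mouse 45 (8.28 CPM) and WT sh-Glud1 mouse 56 (13.5 CPM).

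Acsl1, Elovl2, Agpat2 and Agpat3 fell under sh-Gls2 in both strains. Acsl1 ran from 756 to 1302 CPM in WT control and from 793 to 1032 CPM in WT sh-Gls2 (medians 1228 and 877), and in OTC from 354 to 1110 CPM to 484 to 682 CPM (medians 818 and 595). The sh-Gls2 libraries lie within the control range in both strains. The log2 fold changes of Acsl1 were −0.38 ± 0.10 in WT livers (adjusted p = 0.0034) and −0.40 ± 0.11 in OTC livers (edgeR adjusted p = 0.00239). Elovl2, an elongase that acts on long polyunsaturated chains, had medians of 687 and 523 CPM in WT (ranges 615 to 813 and 486 to 691) and of 636 and 431 CPM in OTC (ranges 262 to 861 and 346 to 465). It fell by 0.35 ± 0.11 log2 in WT livers (adjusted p = 0.015) and fell by 0.55 ± 0.12 in OTC livers (edgeR adjusted p = 0.000245).

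Both lysophosphatidate acyltransferases fell. Agpat3 ran from 159 to 189 CPM in WT control and from 144 to 166 CPM in WT sh-Gls2, and from 155 to 226 and 136 to 172 CPM in OTC. Its log2 fold changes were −0.20 ± 0.06 (edgeR adjusted p = 0.00801) and −0.22 ± 0.06 (edgeR adjusted p = 0.0031). The OTC value of Agpat3 was −0.13 without OTC control mice 3 and 67 (adjusted p = 0.0861). Agpat2 changed by −0.34 ± 0.12 in WT livers (adjusted p = 0.02) and by −0.32 ± 0.12 in OTC livers (edgeR adjusted p = 0.0318). Its WT call ended without WT sh-Gls2 mouse 78 (adjusted p = 0.0509) and its OTC call without any of 6 libraries (OTC control 38, 43 or the unnumbered, OTC sh-Gls2 49, 50 or 60; adjusted p from 0.0501 to 0.0793). The WT call was lost in a fit of those groups only (adjusted p = 0.0749) and the OTC call in TPM (limma adjusted p = 0.0831).

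The 2 secretion genes moved apart in WT. Mttp rose in WT from 334 ± 23.9 to 376 ± 28.3 CPM (SD, n = 10 each; log2 fold change 0.17 ± 0.05, edgeR adjusted p = 0.014) and in OTC from 304 ± 26.1 (SD, n = 8) to 347 ± 31.5 CPM (SD, n = 10; 0.19 ± 0.06, edgeR adjusted p = 0.00662). Apob fell in WT by −0.14 ± 0.06 (edgeR adjusted p = 0.0405), a call that ended without any of 8 libraries (WT control 7, 10, 28, 41 or 77, WT sh-Gls2 1, 45 or 79; adjusted p from 0.0511 to 0.0818), as in TPM (limma adjusted p = 0.0588). Apob was not called in OTC, where control livers had 6126 ± 407 CPM (SD, n = 8) against 6603 ± 674 CPM with the hairpin (SD, n = 10).

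Further changes passed the test in 1 strain. In WT, Srebf1 fell from 151 to 442 CPM (median 305) to 121 to 387 CPM (median 189), by −0.55 ± 0.19 log2 (edgeR adjusted p = 0.0208). Without WT control mouse 11 the value for Srebf1 was −0.47 (adjusted p = 0.0529). In OTC, Dgat1 fell from 18.3 to 29.6 CPM (median 20.5) to 14.8 to 17 CPM (median 15.9), so that every sh-Gls2 library was below every control (−0.43 ± 0.08, edgeR adjusted p = 3.54e-05), where 3.15% of all genes lay fully below. Dgat1 was at −0.32 (adjusted p = 0.00136) when OTC control mice 3 and 67 were left out. Scd2 rose by 0.53 ± 0.19 (adjusted p = 0.019), not called without OTC control mouse 43 or OTC sh-Gls2 mouse 74 (adjusted p to 0.0511) or without OTC control mice 3 and 67 (0.38, adjusted p = 0.125), and at 0.83 without the unnumbered OTC control.

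Other OTC changes rested on few libraries. Lpin1 fell by 1.37 ± 0.43 log2 in the full set (edgeR adjusted p = 0.0088), from 82.9 to 1896 CPM (median 122) to 64.9 to 261 CPM (median 194). The group medians go the other way, and the value was −0.50 (adjusted p = 0.311) without OTC control mouse 3 and 0.59 (adjusted p = 0.144) without mice 3 and 67. Pnpla3, a lipase-like protein of lipid droplets whose transcript follows feeding, fell by 1.93 ± 0.71 (adjusted p = 0.0235), from 0.754 to 32.6 CPM to 1.21 to 6.18 CPM, and was not called without the unnumbered OTC control (−1.42, adjusted p = 0.108). Acss2, which makes acetyl-CoA from acetate, fell by 0.65 ± 0.27 (adjusted p = 0.0434), from 47.7 to 370 CPM to 69.3 to 227 CPM. Leaving out any of 11 of the 18 libraries ended the call of Acss2 (OTC control 38, 72 or the unnumbered, any OTC sh-Gls2 but 39 and 74; −0.65 to −0.41, adjusted p from 0.0514 to 0.216). In TPM with a pseudocount of 1 the calls of Lpin1 (−0.34, limma adjusted p = 0.541), Pnpla3 (−0.95, 0.0766) and Acss2 (−0.43, 0.224) were lost.

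No gene of the 34 was shown to respond to sh-Gls2 differently in the 2 strains. The interaction called 0 of 34 by edgeR and by DESeq2, with 3 at an unadjusted p below 0.05, and 0.338% of all genes. The smallest adjusted p values were those of Apob (difference 0.25 ± 0.08, edgeR adjusted p = 0.178), Lpin1 (−1.67 ± 0.60, adjusted p = 0.25) and Dgat1 (−0.31 ± 0.11, adjusted p = 0.263). The interaction for sh-Glud1 called 0 of 34 and 0 of all 13311 genes, with 0 of the 34 at an unadjusted p below 0.05 and 0 by DESeq2.

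Under sh-Glud1 none of the 34 genes changed detectably against control in either strain. Called were 0 in WT, where 0.0225% of all genes (3 genes) passed, and 0 in OTC, where 0.015% (2 genes) passed. At an unadjusted p below 0.05 there was 1 gene in WT and 2 in OTC, and DESeq2 called 0 in both. The medians of the 34 log2 fold changes were 0.16 and 0.14, against −0.01 and −0.00 over all genes. The smallest adjusted p among the 34 was 0.93 in WT and 0.988 in OTC. In WT, Fasn was at 786 ± 414 CPM with the control vector (SD, n = 10) against 1137 ± 487 CPM with sh-Glud1 (SD, n = 9), with a log2 fold change of 0.53 ± 0.36. In OTC it was at 791 ± 558 against 989 ± 462 CPM (SD, n = 8 each; 0.32 ± 0.40). The spread of these values leaves room for changes of that size.

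**Figure D4:**
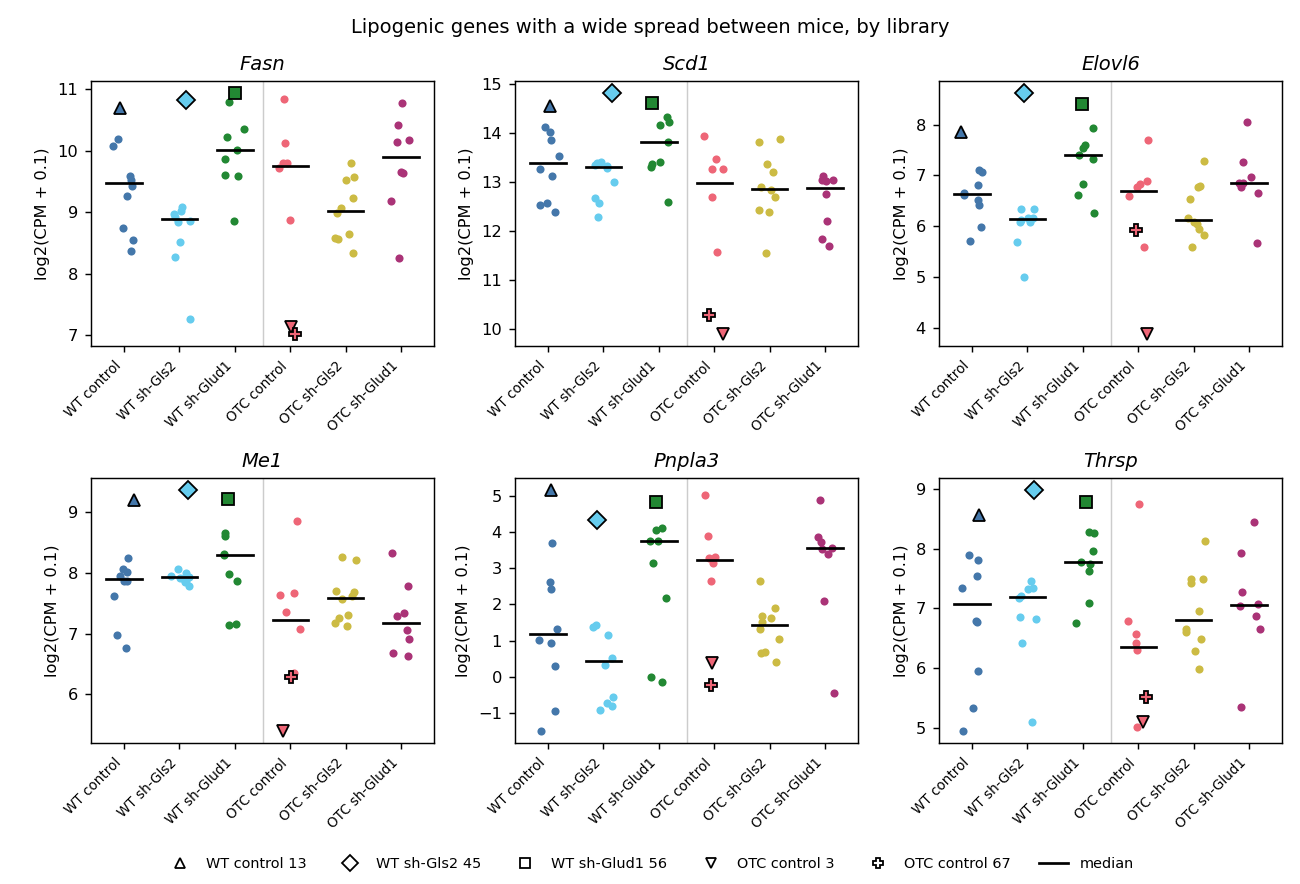
Strip plots of log2(CPM + 0.1) for Fasn, Scd1, Elovl6, Me1, Pnpla3 and Thrsp, with 1 point per mouse in the 6 groups, a black line at each median and the marked libraries as in the strip plots of strain differences. WT control mouse 13, WT sh-Gls2 mouse 45 and WT sh-Glud1 mouse 56 are the highest of their groups for all 6 genes, and Fasn was at 1662, 1822 and 1964 CPM in them.

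The hairpins were also compared with each other. In WT, 2 genes were higher and 9 lower under sh-Gls2 than under sh-Glud1 (29.6% of all genes, 15.5% higher and 14.2% lower), and in OTC 4 were higher and 8 lower (40.5% of all genes, 19.5% higher and 21.1% lower). Elovl1 and Lpin3 were higher, and Acsl1, Acss2, Agpat3, Elovl2, Fads1 and Pnpla3 lower, in both strains. In WT, Lpin3 lay fully above (7.25 to 10.6 against 4.34 to 6.72 CPM; 0.59 ± 0.11, edgeR adjusted p = 2.26e-05) and Agpat3 fully below (144 to 166 against 176 to 202 CPM; −0.30 ± 0.06, edgeR adjusted p = 9.98e-05), where 3.51% and 2.67% of all genes did so. In OTC, Acsl1 lay fully below (484 to 682 against 705.5 to 915 CPM; −0.41, edgeR adjusted p = 0.00207) and none lay fully above, against 3.04% and 3.33% of all genes. In WT, Srebf1 was at 200 ± 74.5 CPM (SD, n = 10) against 357 ± 57.9 CPM (SD, n = 9; −0.83 ± 0.20, edgeR adjusted p = 0.000853).

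Fasn reached a call in this contrast. It ran from 154 to 1822 CPM under WT sh-Gls2 (median 473) and from 467 to 1964 CPM under WT sh-Glud1 (median 1033), with a log2 fold change of −1.01 ± 0.37 (SE; edgeR adjusted p = 0.0302). The ranges overlap, and leaving out WT sh-Gls2 mouse 1, 30 or 79 or WT sh-Glud1 mouse 15 or 56 ended the call of Fasn (−0.96 to −0.88, adjusted p from 0.0505 to 0.0703). In OTC the same contrast gave −0.84 ± 0.38 (adjusted p = 0.0674). The WT count of 11 called genes depended on mouse 45 and mouse 79 of WT sh-Gls2: it was 17 (2 higher, 15 lower) without mouse 45 and 7 (2 higher, 5 lower) without mouse 79. In WT the call of Pnpla3 (−1.81 ± 0.69, adjusted p = 0.0396; −3.13 without mouse 45) ended without any of 14 of the 19 libraries, all but WT sh-Gls2 45 and WT sh-Glud1 17, 37, 57 and 70 (−1.78 to −1.52, adjusted p to 0.0956). That of Acss2 (−0.66 ± 0.26, adjusted p = 0.048) ended without any of 13, all but WT sh-Gls2 1, 34 and 45 and WT sh-Glud1 15, 37 and 40 (adjusted p to 0.0821). That of Acsl1 (−0.29, adjusted p = 0.0349) ended without WT sh-Gls2 18 or 79 or WT sh-Glud1 15, 32, 40 or 69 (adjusted p to 0.0768). Both were lost in TPM (limma adjusted p = 0.0583 for Acss2 and 0.061 for Acsl1). In OTC the call of Mlxipl (0.38, adjusted p = 0.0211) ended without OTC sh-Glud1 mouse 65 (0.28, adjusted p = 0.0729), and that of Acsl3 (−0.57, adjusted p = 0.0207) without OTC sh-Glud1 mouse 42 or 53 (adjusted p to 0.0644).

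The Fasn transcript correlated with those of Srebf1, Mlxipl and Thrsp across mice to different degrees, which gives no direction of control. Correlations were computed on log2 CPM within each group, with permutation p-values adjusted over the 18 relations, of which 11 had an adjusted p below 0.05 by Pearson's r and 6 by Spearman's rho. Those 6 were Srebf1 in WT control and WT sh-Gls2, and Thrsp in the control and sh-Glud1 groups of both strains. By rank, the calls of Srebf1 in OTC control (adjusted p = 0.104) and WT sh-Glud1 (0.0699), of Mlxipl in OTC control (0.215) and OTC sh-Glud1 (0.056) and of Thrsp in WT sh-Gls2 (0.0965) were lost. With Thrsp, Pearson r was 0.935 in WT control (Spearman rho 0.867, permutation p = 0.00014, adjusted p = 0.00119), 0.952 in WT sh-Glud1 (rho 0.95, permutation p = 8e-05) and 0.965 in OTC sh-Glud1 (rho 0.952, exact permutation p = 0.000198). Without the 2 mice farthest from the median of Thrsp these were 0.897, 0.866 and 0.866. In WT sh-Gls2 the r of 0.916 with Thrsp became 0.151 without the 2 farthest mice, so that it rests on those mice. In OTC control it was 0.785 (rho 0.833, exact permutation p = 0.0108, adjusted p = 0.0215) and 0.933 without the 2 farthest, and in OTC sh-Gls2 0.53 (rho 0.491, permutation p = 0.117).

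With Srebf1, r was 0.846 in WT control (rho 0.818, permutation p = 0.00246, adjusted p = 0.00886), 0.923 in WT sh-Gls2 (rho 0.83, permutation p = 0.00158, adjusted p = 0.00711) and 0.722 in WT sh-Glud1 (rho 0.733, permutation p = 0.0276, adjusted p = 0.0452). Without the 2 mice farthest from the median of Srebf1 these were 0.817, 0.866 and 0.735. In OTC control it was 0.947 (rho 0.714, exact permutation p = 0.00367, adjusted p = 0.011), and 0.651 without mice 3 and 67. In OTC sh-Gls2 it was −0.351 (rho −0.358, permutation p = 0.322), and in OTC sh-Glud1 0.689 (rho 0.429, exact permutation p = 0.101), which became −0.123 without the 2 farthest mice. With Mlxipl, r had an adjusted p below 0.05 only in OTC control (0.811, rho 0.571, exact permutation p = 0.0228, adjusted p = 0.0411; 0.347 without mice 3 and 67) and OTC sh-Glud1 (0.918, rho 0.81, exact permutation p = 0.0057, adjusted p = 0.0147; 0.678 without the 2 farthest). In WT sh-Gls2 it was −0.501 (rho −0.309, permutation p = 0.153), and in WT control 0.629 (rho 0.515, permutation p = 0.0477, adjusted p = 0.0715). A difference in r between groups was not tested.

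**Figure D5:**
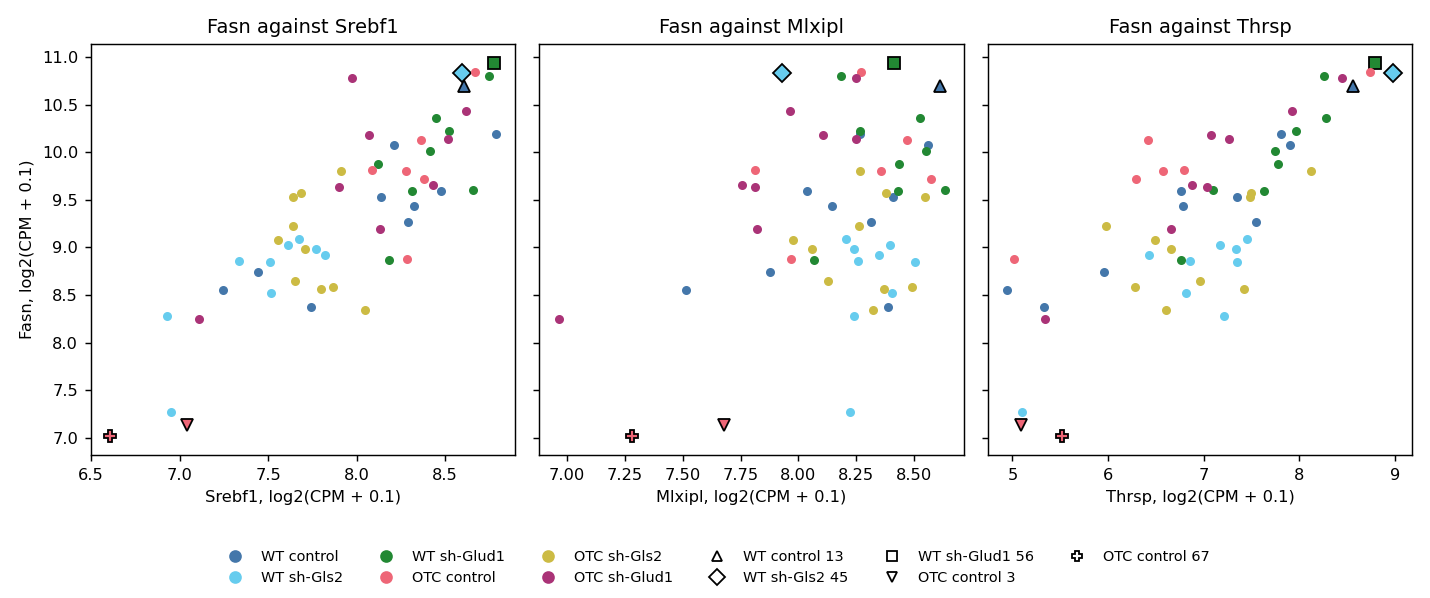
Scatter plots of Fasn (vertical axis, log2 CPM) against Srebf1, Mlxipl and Thrsp (horizontal axes, log2 CPM), with 1 point per mouse coloured by group and the 5 marked libraries as in the strip plots of strain differences. Points rise together for Thrsp in WT control (r = 0.935), whereas OTC sh-Gls2 points show no such trend for Srebf1 (r = −0.351).

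Other genes of the same pathways were read from 7 lists (upstream regulators, citrate export and NADPH supply, other elongation and desaturation enzymes, other glycerolipid enzymes, other droplet and lipolysis genes, other lipoprotein genes and fatty acid uptake), with 90 of 93 genes tested. Between strains under the control vector 13 were higher and 23 lower, which is 40% against 36.3% of all genes. In OTC, Tm6sf2, which acts in the lipidation of very low density lipoprotein, was at 49.5 ± 9.69 CPM (SD, n = 8) against 26.4 ± 5.69 CPM (SD, n = 10) in WT (log2 fold change 0.91 ± 0.12, edgeR adjusted p = 5.86e-08). Ppap2c (0.93 ± 0.13) and Ppap2a (0.59 ± 0.12), from the list of other glycerolipid enzymes, were higher. Hsd17b12 (−0.89 ± 0.12) and Hacd1 (−0.77 ± 0.10), which act in the elongation cycle after the ELOVL enzymes, and the droplet protein Fitm1 (−3.21 ± 0.52) were lower, all with edgeR adjusted p of 7.11e-05 or less.

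Under sh-Gls2, 13 of these 90 rose and 18 fell in WT, and 15 rose and 23 fell in OTC, which is 34.4% and 42.2% against 34.8% and 42.7% of all genes. Apoa4, an apolipoprotein of triglyceride-rich particles, rose in both strains, from 136 ± 43.5 to 365 ± 206 CPM in WT (SD, n = 10 each; log2 fold change 1.43) and from 127 ± 48.1 (SD, n = 8) to 303 ± 68.5 CPM (SD, n = 10) in OTC (1.26 ± 0.26, edgeR adjusted p = 0.000107). Cd36, a fatty acid transporter that macrophages express as well, rose in OTC from 39.6 ± 24.7 (SD, n = 8) to 211 ± 62.8 CPM (SD, n = 10), with every sh-Gls2 library above every control (2.41 ± 0.41, edgeR adjusted p = 5.17e-06), as for 3.59% of all genes. Nr1h3, the liver X receptor alpha gene upstream of Srebf1, fell in OTC from 64.1 ± 2.51 (SD, n = 8) to 52.1 ± 3.47 CPM (SD, n = 10), again without overlap (−0.30 ± 0.04, edgeR adjusted p = 4.28e-08), where 3.15% of all genes lay fully below. Srebf2 (−0.41), the lysosomal lipase Lipa (−0.54) and the insulin receptor gene Insr (−0.29) fell in WT. Under sh-Glud1, 0 of the 90 were called in either strain.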

How the data were processed

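Poly(A)-selected, strand-specific liver libraries of 55 mice were analysed, each from 1 mouse. The authors deposited whole-number read counts per gene symbol, not normalized, and TPM (transcript abundance that the authors scaled to a fixed total). Steps named in the submitters' processing notes are CASAVA 1.8.2, FastQC and the build GRCm38. Neither the aligner nor the counter is given in the sources used here. Libraries were amplified by PCR without molecular identifiers, so counts are not independent molecules, and SDs between mice are the measure of error.

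Counts were tested with edgeR 4.0.16 (R 4.3.3): filterByExpr (minimum count 10, minimum total 15) kept 13311 genes, TMM factors lay between 0.924 and 1.12, and quasi-likelihood F tests came from 1 fit of all 55 libraries to their 6 groups. Tests were two-sided, p-values were adjusted by Benjamini-Hochberg over the 13311 genes, and a gene was called below 0.05. SEs of log2 fold changes were taken as |log2 fold change| over √F. The pipeline was tested on simulated data. Correlations used log2 CPM with a prior count of 2 and exact permutations for 8 mice, otherwise 100000 permutations. Gene positions came from GENCODE M21, and promoters from RefSeq, where 29 of the 35 genes matched.

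The 35 genes and all lists were chosen with earlier results of these data known. In each comparison the 6 called genes with the lowest adjusted p per direction were described by level, with others where a role needed it, and 3 per direction could be named from the pathway lists. Alternatives were DESeq2 1.42.0 (size factors, Wald test), other filters on low counts, a fit of the compared groups only, limma 3.58.1 on log2(TPM + 1) and log2(TPM + 0.1), and fits without libraries that stood apart or without each library in turn.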

Additional observations from a re-analysis of the deposited data

Results flagged for a closer look

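Each of the 35 genes was screened in each of the 6 groups for a library separated from the rest of its group by a gap that is large for the range of the group. Of 210 such sets, 25 had one, in 10 libraries and 19 genes. Chance gives about 1 in 20 for independent sets of normally spread values. Genes of the same mice are not independent and some sets held few reads, so no excess over chance is shown. No explanation was tested.

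WT sh-Gls2 mouse 45 accounts for 12 of them. It was high for Fasn (1822 CPM, others 154 to 544), Scd1 (28878, others 4962 to 10801), Elovl6 (393, others 32.2 to 81.3), Elovl5 (954, others 415 to 611), Me1 (661, others 222 to 267), Acaca (192, others 100.1 to 128) and Fads2 (634, others 273 to 410). It was also high for Pnpla3 (20.3, others 0.427 to 2.58), Mogat1 (11.9, others 0.063 to 1.43), Cidea (8.28, others 0 to 0.0578) and Cidec (37.3, others 0.704 to 3.29), and low for Mlxipl (244, others 295 to 363). In the same group Acly, ATP citrate lyase, was low in mouse 79 (167 CPM, others 347 to 766).

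In WT control, mouse 13 was high for Acaca (165 CPM, others 110.4 to 135) and low for Apob (6872, others 8073 to 9356). Mouse 7 was low for Fads2 (187, others 333 to 503) and Acsl1 (756, others 1005 to 1302) and high for Lpin3 (9.08, others 4.79 to 6.05). In WT sh-Glud1, mouse 56 was high for Cidea (13.5, others 0 to 0.111).

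In OTC control, mouse 3 was high for Dgat1 (29.6 CPM, others 18.3 to 22.4) and mouse 67 for Mogat1 (0.251, others 0 to 0.0515). In OTC sh-Gls2, mouse 74 was high for Scd2 (22.3, others 11.6 to 16.2) and mouse 24 for Cidea (0.131, others 0 to 0.0505). In OTC sh-Glud1, mouse 65 was low for Mlxipl (125, others 216 to 304) and high for Agpat3 (244, others 157 to 192).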

How the results depend on the processing

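No paired analysis was possible because the mouse numbers are unique and shared by no groups. Of 90 called results for single genes over the comparisons, 64 kept their call when any 1 library was left out and 26 lost it for at least 1 library, as named in the report. The counts of called genes stayed within 1.5 times the full count when 1 library was left out, except for WT sh-Gls2 against WT sh-Glud1, which ranged from 7 to 17 around 11 (17 without mouse 45, 7 without mouse 79). DESeq2 (Wald test or size factors) and the filter of 1 CPM in 8 libraries lost 0 of 90 calls, no filter lost 5 (Acss2 under sh-Gls2 in OTC, Fads2 and Pnpla2 between strains under sh-Gls2, Acss2 and Pnpla3 between hairpins in WT), a fit of the compared groups only lost 6 of 87 (Scd2 and Acsl5 between strains under control, Agpat2 under sh-Gls2 in WT, Acss2, Scd2 and Lpin1 under sh-Gls2 in OTC), and TPM lost 21 of 90 with either pseudocount, with no call reversed. The change of Lpin1 under sh-Gls2 in OTC turned from −1.37 to 0.59 without OTC control mice 3 and 67 and to 0.60 when WT control mouse 13 was left out too. Without mice 3 and 67, 4 genes were higher and 7 lower between strains under control, and 5 rose and 10 fell under sh-Gls2 in OTC. The correlation of Fasn with Mlxipl in WT sh-Gls2 turned from −0.501 to 0.285 without mouse 45, an alternative chosen after seeing the data. The cause was not tested in these cases. Depth limits Cidea, Mogat1, Cidec and Pnpla3, with few reads in many libraries, and spread between mice limits the lipogenic enzymes.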
